A study of Mus musculus with 17 samples.

Results

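The genes described are 40 genes of motile cilia, as carried by ependymal cells, out of 17615 genes tested and 55450 listed in the files. They were listed by name from known roles in multiciliated cells, and the list was proposed with earlier results of these libraries in view. Counts and folds over the list are therefore descriptions, read beside the same share of all tested genes. All 40 genes passed the filter on low counts. Expression was measured by RNA-seq of polyadenylated RNA from the hippocampi of adult mice, with 1 library from each of 17 samples. Epileptic mice had received kainic acid, which excites glutamate receptors, in the right amygdala, and control mice had a sham procedure. All groups carried adeno-associated viruses with a catalytically dead Cas9 activator (dCas9A) that binds at a promoter and raises transcription, together with a guide RNA. The groups were control mice with the guide sgLacZ (control sgLacZ, n = 5), epileptic mice with sgLacZ (epileptic sgLacZ, n = 6) and epileptic mice with sgKcna1 (epileptic sgKcna1, n = 6). As a control guide, sgLacZ matches a gene of bacteria, whereas sgKcna1 targets the promoter of the potassium channel gene Kcna1. The study describes males and females of the C57BL/6J strain for the epilepsy model, a Camk2a promoter that biases the activator towards excitatory neurons, and doxycycline food that switches it on in every group. Ependymal cells were thus not the cells aimed at. Sham mice with sgKcna1 are not analysed here.

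Ependymal cells line the ventricles and beat bundles of motile cilia that move cerebrospinal fluid. The shaft of such a cilium, the axoneme, is a ring of doublet microtubules around a central pair, and outer and inner dynein arms on the doublets power the bending. Radial spokes and the central apparatus regulate the arms, nexin links hold the doublets together, and factors in the cytoplasm preassemble the dyneins. The transcription factor Foxj1 switches on the motile programme, together with RFX factors that bind the X-box in promoters. Neurons and most glia carry at most a primary cilium, which shares the transport machinery but has no dynein arms. A hippocampal dissection takes in ependyma at its ventricular face, and in bulk samples fewer cells of a type and less RNA per cell cannot be told apart.

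Promoters are shown for some of the members described below, picked as examples with and without an exact spelling of an X-box arm. The letters GTTGCC, or GGCAAC on the opposite strand, were searched in windows of 300 bases, running from 250 bases before to 50 bases after each annotated start. The windows came from RefSeq (build GRCm38.p6), where 32 of the 40 members had 39 promoters. No window was available for the other 8, Foxj1, Rsph1, Rsph4a, 1700007G11Rik, Armc4, Efhb, Tppp3 and Riiad1. Capitals mark this spelling on either strand, and other spellings of the arm were not searched. Each sequence is written 5′ to 3′ on the strand of its gene.
Ccdc153, chr9:44240427-44240726, plus strand: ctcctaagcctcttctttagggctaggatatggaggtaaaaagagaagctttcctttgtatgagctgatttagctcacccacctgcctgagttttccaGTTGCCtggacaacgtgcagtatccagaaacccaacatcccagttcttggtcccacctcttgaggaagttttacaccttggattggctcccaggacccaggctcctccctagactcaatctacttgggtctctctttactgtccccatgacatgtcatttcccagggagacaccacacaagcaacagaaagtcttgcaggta
Dynlrb2, chr8:116504765-116505064, plus strand: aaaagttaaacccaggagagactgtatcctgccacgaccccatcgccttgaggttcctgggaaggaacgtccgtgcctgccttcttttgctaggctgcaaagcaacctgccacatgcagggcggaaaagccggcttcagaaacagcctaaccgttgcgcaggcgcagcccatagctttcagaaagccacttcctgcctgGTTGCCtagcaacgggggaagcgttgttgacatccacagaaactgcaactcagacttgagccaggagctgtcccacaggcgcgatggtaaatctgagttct
Kif9, chr9:110476744-110477043, plus strand: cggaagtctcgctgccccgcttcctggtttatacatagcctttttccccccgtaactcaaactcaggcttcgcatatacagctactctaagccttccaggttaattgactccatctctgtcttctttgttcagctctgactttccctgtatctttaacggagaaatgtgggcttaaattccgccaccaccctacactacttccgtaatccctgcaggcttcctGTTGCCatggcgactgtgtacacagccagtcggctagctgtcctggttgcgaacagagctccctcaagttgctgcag
Hydin, chr8:110266727-110267026, plus strand: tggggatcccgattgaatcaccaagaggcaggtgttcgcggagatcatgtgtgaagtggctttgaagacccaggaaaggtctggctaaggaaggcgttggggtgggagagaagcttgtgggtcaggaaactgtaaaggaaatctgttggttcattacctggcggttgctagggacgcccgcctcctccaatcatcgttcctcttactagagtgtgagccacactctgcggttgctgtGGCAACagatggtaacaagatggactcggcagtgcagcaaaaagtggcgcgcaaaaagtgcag
Tmem212, chr3:27896319-27896618, minus strand: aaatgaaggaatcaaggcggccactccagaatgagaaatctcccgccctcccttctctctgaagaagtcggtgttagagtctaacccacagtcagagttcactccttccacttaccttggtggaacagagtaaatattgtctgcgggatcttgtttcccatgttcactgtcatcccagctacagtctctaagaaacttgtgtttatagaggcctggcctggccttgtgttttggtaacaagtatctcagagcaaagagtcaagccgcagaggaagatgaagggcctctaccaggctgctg
Odf3b, chr15:89379205-89379504, minus strand: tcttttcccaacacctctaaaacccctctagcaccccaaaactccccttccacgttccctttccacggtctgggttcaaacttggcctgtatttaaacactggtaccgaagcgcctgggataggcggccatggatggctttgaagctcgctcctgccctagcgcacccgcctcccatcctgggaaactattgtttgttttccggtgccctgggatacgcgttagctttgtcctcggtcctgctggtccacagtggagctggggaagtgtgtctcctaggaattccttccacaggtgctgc
The arm began at position -152 relative to the start site in Ccdc153, at -51 in Dynlrb2, at -27 in Kif9 and at -13 in Hydin. The windows of Tmem212 and Odf3b held neither spelling, and the same was so for Dnah6 and Ak7, which are not shown. An arm in this exact spelling was present in 18 of 39 member promoters (46.2%) and 16 of the 32 genes. The share was 45.6% of 68 promoters of other motile cilia genes, 28.6% of 21 promoters of choroid plexus markers and 12.5% of 32851 promoters in all. A forkhead motif, GTAAACA on either strand, was present in 4 of 39 member promoters (10.3%) and 3.65% of all promoters, with 4.41% for other motile cilia genes and 4.76% for choroid plexus markers. The windows of Mlf1 and Sntn held both motifs, and a match of letters was not tested as a binding site.

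The libraries held 11839240 to 28311328 reads in genes, and 3 reads corresponded to 0.106 to 0.253 CPM (counts per 1000000 reads, scaled between libraries). In 5 libraries, reads of Xist and of Y-linked genes occurred together, the lesser at 6.02% to 29.0% of the greater, against at most 4.27% in the other 12. These 5 were control sgLacZ replicates 16 and 23 and epileptic sgKcna1 replicates 1, 11 and 12, and results are also given without them. By the greater of these reads, control sgLacZ held 2 female and 3 male libraries and epileptic sgLacZ 4 female and 2 male. Epileptic sgKcna1 held 2 female and 4 male libraries, the male ones being replicates 1, 2, 3 and 10. The targeted gene Kcna1 had 25.5 to 44.03 CPM in control sgLacZ, 16.9 to 56.7 in epileptic sgLacZ and 13.9 to 133 in epileptic sgKcna1 libraries. Its log2 fold change in epileptic sgKcna1 against epileptic sgLacZ was 0.32 (SE 0.47, adjusted p = 0.706 by edgeR's quasi-likelihood test). The 133 CPM belonged to epileptic sgKcna1 replicate 12, which also had the most unmapped reads (41.5%), so 5 of the 6 libraries labelled sgKcna1 lay within or below the range of those labelled sgLacZ. The groups were taken from the labels. The study likewise reports no clear rise of Kcna1 by RNA-seq, and proposes that this may come from a low number of its reads. By quantitative PCR, the study reports more Kcna1 in hippocampi injected with the Kcna1 activator than in those of the opposite side. The PCR measurements were not analysed here.

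All 40 genes were detected, at very unequal levels. Scaled per kilobase of exon and averaged over 17 libraries, Tppp3, a tubulin-binding protein, was the highest at 52.0 CPM per kilobase, followed by Ccdc153 at 14.7, Rsph9 at 14.3, Dynlrb2 at 12.5, Tmem212 at 11.6 and Rsph1 at 11.5. Foxj1 followed at 8.68. The dynein heavy chains Dnah11 at 0.0340 and Dnah12 at 0.0457 CPM per kilobase were the lowest. Dnah11 and Dnah12 had at most 57 and 40 reads in any library, and Dnah11 had 0 in 3 control sgLacZ libraries, so their values carry a large counting error. Low totals were also found in Tekt2 and Efhb, with at most 21 and 37 reads in a library. In 12 of the 40 genes, counting both strands raised the total by more than 5%, which shows that reads shared with a gene on the opposite strand were left out of the unstranded counts used here.

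The first comparison, epileptic sgLacZ against control sgLacZ, asks what the epileptic state changed. Of the 40 genes, 2 fell past the threshold, Tmem212 and Riiad1, and 0 rose (edgeR quasi-likelihood test, adjusted p under 0.05 over all tested genes). Among all tested genes 3.76% were called lower and 7.26% higher, beside 5.0% and 0% of the members. At an unadjusted p under 0.05, 5 members were lower, against 15.9% of all genes, and 4 were higher, against 18.8%. The median log2 fold change of the members was -0.02, against 0.02 for all tested genes, with 21 of the 40 below 0.

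Tmem212 encodes a small membrane protein used as an ependymal marker and lies on chromosome 3 from 27866065 to 27896391 (GRCm38.p6, as are the positions that follow). Its level was 16.2, 18.4, 8.49, 11.6 and 12.3 CPM in the 5 control sgLacZ libraries, 3.87 to 7.68 (median 5.23) in the 6 epileptic sgLacZ libraries and 3.33 to 17.5 (median 4.01) in the 6 epileptic sgKcna1 libraries. All 6 epileptic sgLacZ libraries were below all 5 control sgLacZ libraries, which was so for 2.4% of all genes and for no other member. Control sgLacZ averaged 13.4 ± 3.93 CPM (SD, n = 5) and epileptic sgLacZ 5.71 ± 1.58 CPM (SD, n = 6). The log2 fold change was -1.23 (SE 0.37, adjusted p = 0.0449). The fold stayed at -1.36 to -1.09 when each library was left out, but the call was lost in 12 of these 17 fits, 7 of which called 0 of all genes tested. It was also lost with the share of unmapped reads (-0.70, adjusted p = 0.0778) or sex (-1.33, adjusted p = 0.0525) as a covariate and once the trend on gene length was removed (-0.71, adjusted p = 0.0960).

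Riiad1, named for its dimerization domain, lies on chromosome 3 from 94464984 to 94480326. It stood at 8.33, 7.82, 6.02, 4.33 and 8.55 CPM in the 5 control sgLacZ libraries, 2.42 to 5.05 (median 3.84) in the 6 epileptic sgLacZ libraries and 2.73 to 5.04 (median 4.71) in the 6 epileptic sgKcna1 libraries. The epileptic sgLacZ libraries lay low, and the highest 3 of them exceeded the lowest control library. The log2 fold change was -0.90 (SE 0.23, adjusted p = 0.0347). Riiad1 is among the genes with reads shared across strands, and with both strand counts summed the direction turned to 0.51 (adjusted p = 0.145). The fall thus refers to the reads that were not shared. The call was also lost in 7 of 17 fits that left out a library (-1.03 to -0.80), the same 7 that called 0 of all genes tested. It was lost too with unmapped reads (-0.69, adjusted p = 0.0731) or sex (-0.88, adjusted p = 0.0515) as a covariate and without the libraries with reads of both sexes (-0.98, adjusted p = 0.0515).

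The strongest difference in the other direction belonged to Kif9, a kinesin of the central apparatus, on chromosome 9 from 110476738 to 110525174. Kif9 was at 2.81, 3.83, 2.88, 3.80 and 4.77 CPM in the 5 control sgLacZ libraries, 3.50 to 7.72 (median 5.88) in the 6 epileptic sgLacZ libraries and 2.50 to 6.00 (median 3.23) in the 6 epileptic sgKcna1 libraries. All epileptic sgLacZ libraries but replicate 5 were above all control libraries. The log2 fold change of 0.70 (SE 0.27, adjusted p = 0.0794) did not pass the threshold, although DESeq2 (adjusted p = 0.0477) and limma voom (adjusted p = 0.0259) called it. Hydin, a giant protein of the central pair, had a log2 fold change of 1.17 (SE 0.45, adjusted p = 0.0803), with 4.46 CPM in epileptic sgLacZ replicate 4 and 0.366 in replicate 5. Dnah11 had the highest value, 2.16 (SE 0.93, adjusted p = 0.110), on very few reads, and summing both strands left 0.34.

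**Figure D1:**
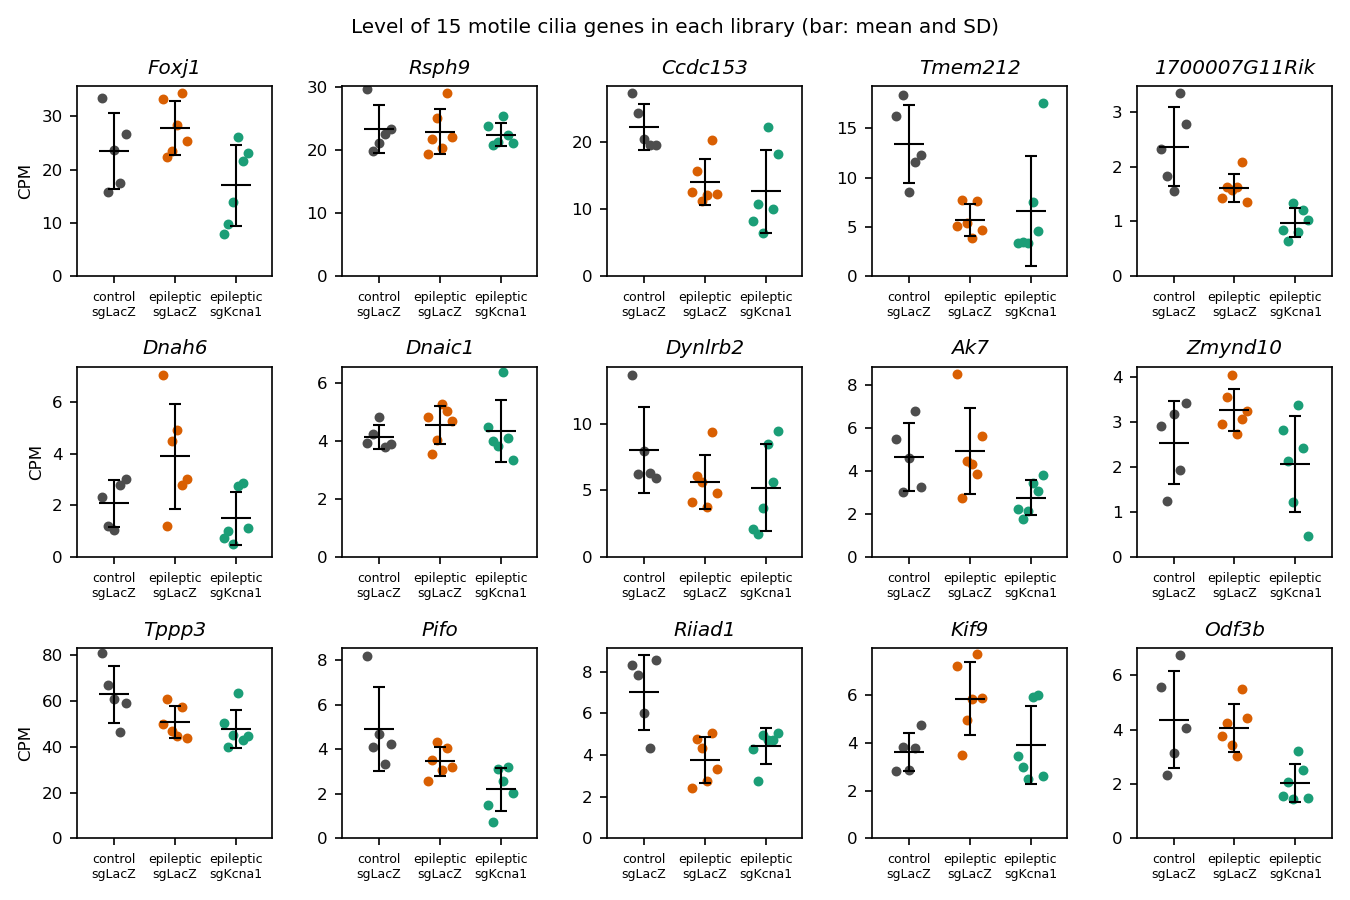
Level in CPM (linear axis from 0) of 15 motile cilia genes in each of the 17 libraries, by group, with black bars for the mean and SD. Tmem212 is lower in all 6 epileptic sgLacZ libraries than in all 5 control sgLacZ libraries, Rsph9 and Dnaic1 overlap in all groups, and 1700007G11Rik is lowest in the epileptic sgKcna1 libraries.

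By structure, of the 6 genes of the outer dynein arm and its docking, 5 had a fold above 0 (median 0.24), as did 3 of the 4 genes of the inner arm and other dyneins (median 0.30). In the central apparatus 3 of 5 were above 0 (median 0.37), with Spag17 at -0.83 and Spef2 at -0.39 the exceptions. The 3 radial spoke genes lay between -0.12 and 0.24. Of the 11 cilium-associated genes outside these structures, 10 were below 0 (median -0.51). None of the dynein, spoke or central apparatus genes passed the threshold.

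The same split ran along gene length. Exon length and log2 fold change had a Spearman's rho of 0.66 across the 40 members, as a description across genes that share the same libraries, and 0.37 across the 15794 tested genes with a length. Of the 11 members shorter than 1500 bases, 0 had a fold above 0 (median -0.52), and of the 12 longer than 5000 bases, 10 did (median 0.30). All tested genes had a median of -0.39 below 1500 bases and 0.20 above 5000 bases. The slope of log2 CPM on log2 exon length, relative to the mean of all libraries, was -0.15 to -0.03 in control sgLacZ, -0.12 to 0.33 in epileptic sgLacZ and -0.08 to 0.02 in epileptic sgKcna1 libraries, with the 0.33 in epileptic sgLacZ replicate 4. After each library's trend on length was removed, the median was -0.13 for the short members and 0.13 for the long ones, and the rho was 0.29.

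**Figure D2:**
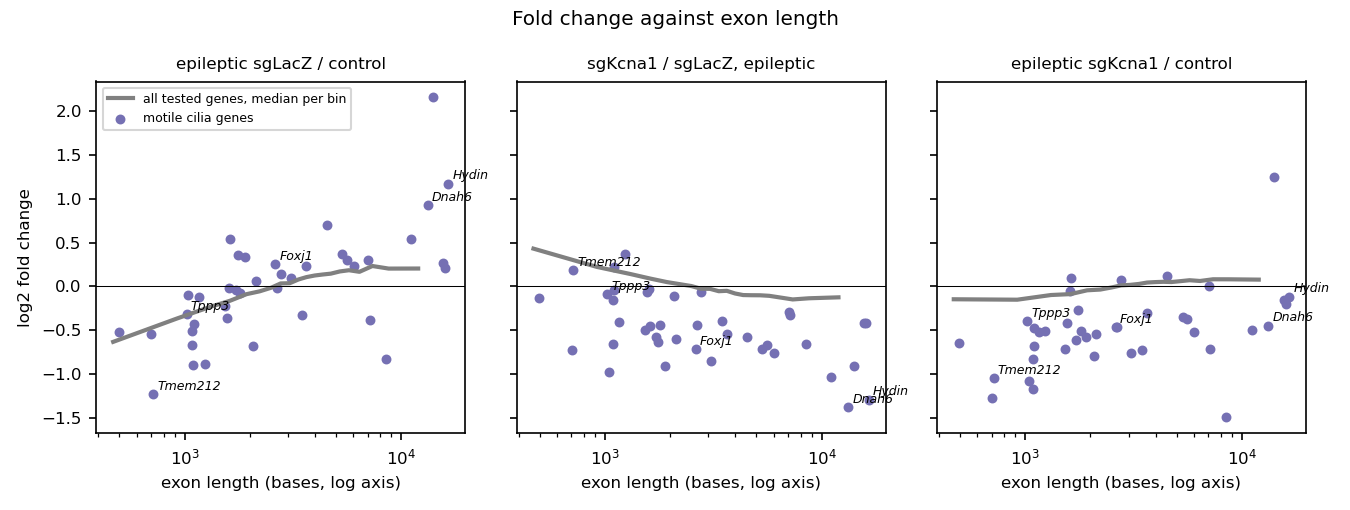
Log2 fold change of each of the 40 motile cilia genes (points) against exon length in bases (log axis) in the 3 comparisons, with a grey line for the median of all tested genes in 20 bins of length. Epileptic sgLacZ against control rises with length for the members (rho 0.66) and for all genes, and in the comparison of both epileptic groups almost all members lie below the grey line.

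The second comparison, epileptic sgKcna1 against epileptic sgLacZ, asks what the guide changed in epileptic mice. It shares the epileptic sgLacZ libraries with the first, so a library that is high or low there moves both in opposite directions. Of the 40 members, 37 had a fold below 0, where 50.7% of all tested genes did. The median log2 fold change was -0.47, against -0.01 for all genes. No member passed the threshold, as was so for all 17615 genes tested (0% called), and the smallest adjusted p among members was 0.213. At an unadjusted p under 0.05, 11 members were lower, against 10.5% of all genes, and 0 were higher. DESeq2 called 1 member, Odf3b, and 0.812% of all genes.

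The 37 genes included all of the 3 radial spoke, 9 doublet and nexin link, 6 outer arm, 4 inner arm and 5 central apparatus genes. Medians were -0.40 for the spokes, -0.44 for the doublet and nexin link, -0.42 for the outer arm, -0.82 for the inner arm and other dyneins and -0.66 for the central apparatus. The relation to exon length ran the other way here, with a Spearman's rho of -0.44 across members and -0.31 across all tested genes. Members shorter than 1500 bases had a median of -0.13 and those longer than 5000 bases -0.69, where all tested genes had 0.24 and -0.12. The 3 genes above 0 were Sntn at 0.37, Riiad1 at 0.22 and Tmem212 at 0.19, all among the other cilium-associated genes. The value of Tmem212 turned to -0.36 without epileptic sgKcna1 replicate 12, in which it had 17.5 CPM.

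Odf3b, a homologue of a sperm outer dense fibre protein, lies on chromosome 15 from 89377447 to 89379254. Its values were 5.57, 2.33, 3.14, 6.73 and 4.07 CPM in the 5 control sgLacZ libraries, 3.01 to 5.49 (median 3.99) in the 6 epileptic sgLacZ libraries and 1.44 to 3.20 (median 1.80) in the 6 epileptic sgKcna1 libraries. The epileptic sgKcna1 libraries were low, and only their highest exceeded the lowest epileptic sgLacZ library. The log2 fold change was -0.98 (SE 0.27, adjusted p = 0.213). Ak7, an adenylate kinase needed for ciliary beating, on chromosome 12 from 105703858 to 105782447, had 5.47, 3.04, 4.60, 6.80 and 3.24 CPM in the 5 control sgLacZ libraries, 2.77 to 8.48 (median 4.40) in the 6 epileptic sgLacZ libraries and 1.79 to 3.83 (median 2.66) in the 6 epileptic sgKcna1 libraries. Groups overlapped, and the log2 fold change was -0.85 (SE 0.28, adjusted p = 0.213).

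Dnah6, an inner arm dynein heavy chain, on chromosome 6 from 73017603 to 73222227, had 2.33, 1.21, 1.05, 2.80 and 3.01 CPM in the 5 control sgLacZ libraries, 1.20 to 7.01 (median 3.75) in the 6 epileptic sgLacZ libraries and 0.500 to 2.87 (median 1.06) in the 6 epileptic sgKcna1 libraries. Its log2 fold change was -1.38 (SE 0.45, adjusted p = 0.213) here and 0.93 (SE 0.47, adjusted p = 0.162) in epileptic sgLacZ against control. Epileptic sgLacZ replicate 4 was the highest library and epileptic sgKcna1 replicate 3 the lowest. With both strands summed these values were -1.01 and 0.40. Epileptic sgLacZ replicate 5 was the lowest of its group for Dnah6, Hydin and Ak7, and in the fit without it Dnah6, Hydin, Ak7 and Odf3b passed the threshold (adjusted p = 0.0428, 0.0416, 0.0433 and 0.0465). That fit called 8.54% of all genes, so 4 of 40 members is near the background.

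Foxj1, the master regulator of the motile programme, lies on chromosome 11 from 116330704 to 116335499. Foxj1 was at 33.4, 15.8, 23.7, 17.5 and 26.8 CPM in the 5 control sgLacZ libraries, 22.4 to 34.4 (median 26.9) in the 6 epileptic sgLacZ libraries and 7.87 to 26.2 (median 17.9) in the 6 epileptic sgKcna1 libraries. The low end was made of epileptic sgKcna1 replicates 1, 2 and 3 at 7.87, 9.74 and 14.0 CPM, below all other libraries, whereas replicates 10, 11 and 12 at 26.2, 21.7 and 23.1 lay inside the control range, and of these replicate 11 was below all epileptic sgLacZ libraries. The log2 fold change was -0.71 (SE 0.26, adjusted p = 0.213) against epileptic sgLacZ and -0.46 (SE 0.27, adjusted p = 0.766) against control sgLacZ.

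The same 3 libraries stood apart over the list. The mean log2 CPM of the 40 members, relative to the control mean, was -0.78, -0.93 and -0.84 in epileptic sgKcna1 replicates 1, 2 and 3, and -0.05, -0.20 and -0.29 in replicates 10, 11 and 12. It ran from -0.23 to 0.19 in epileptic sgLacZ and from -0.23 to 0.37 in control sgLacZ libraries. Replicate 1 was the lowest of all 17 libraries for 6 members, replicate 2 for 11 and replicate 3 for 12. Summed over members, CPM ranged from 250.4 to 359.7 in control sgLacZ, 235.4 to 305.6 in epileptic sgLacZ and 153.9 to 280.4 in epileptic sgKcna1 libraries. Leaving out replicates 1, 2 or 3 in turn gave medians of -0.44, -0.42 and -0.39. Leaving out all 5 libraries with reads of both sexes gave -0.57, with 37 of 40 below 0 again. That fit kept epileptic sgKcna1 replicates 2, 3 and 10, and each of the others also kept low libraries among replicates 1, 2 and 3. These fits therefore cannot show how far the median depends on replicates 1, 2 and 3 together.

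**Figure D3:**
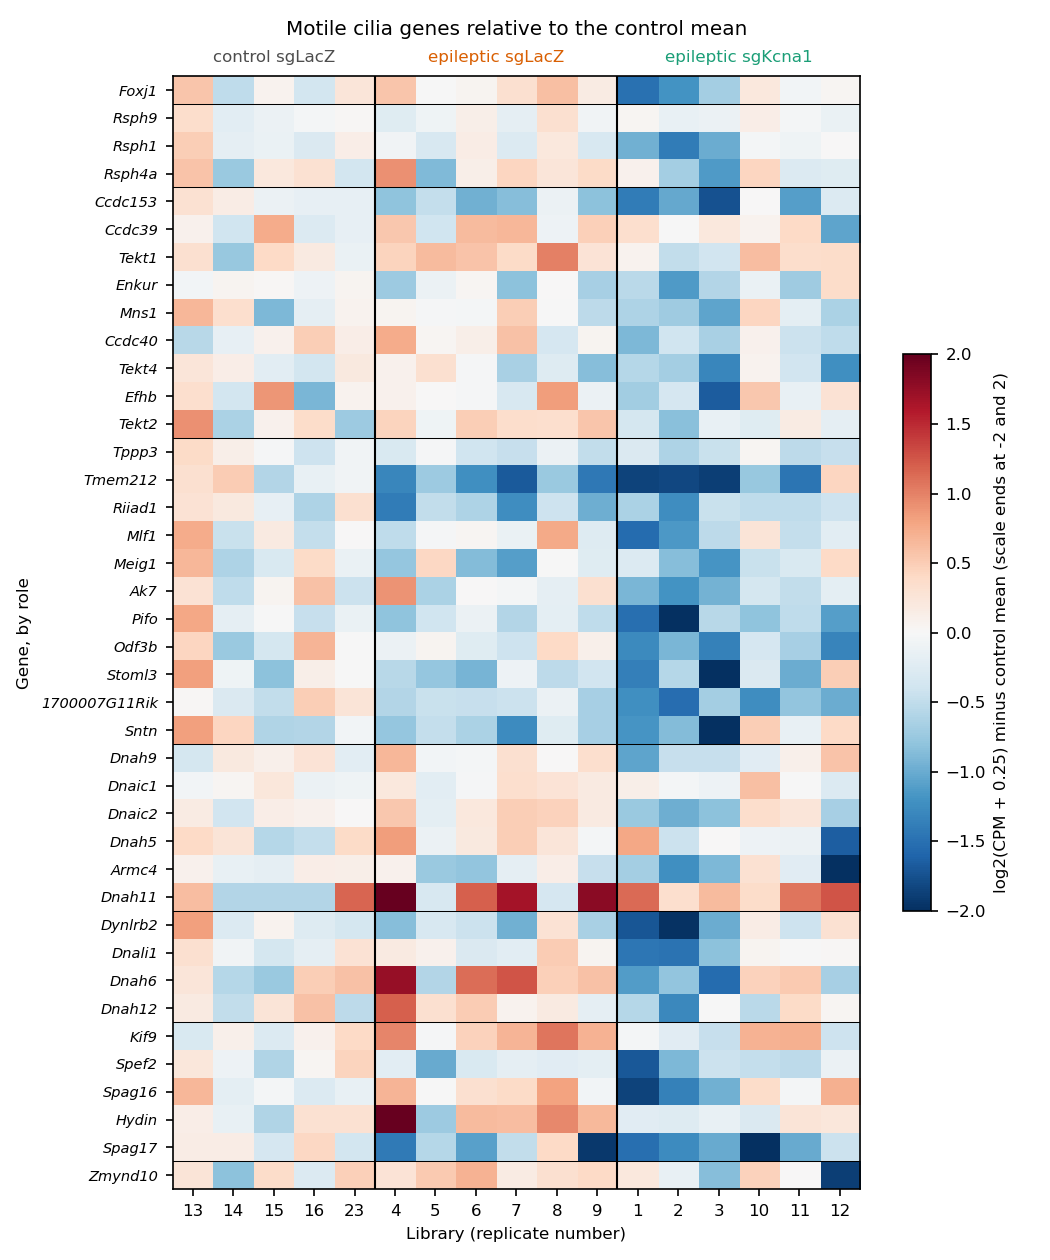
Log2 CPM of the 40 motile cilia genes (rows, by role) in each library (columns, numbered by replicate) relative to the mean of the control sgLacZ libraries, in colours from blue (lower) to red (higher) that end at -2 and 2. Blue runs through most rows in epileptic sgKcna1 replicates 1, 2 and 3, and the long genes Dnah6, Dnah11 and Hydin are red in epileptic sgLacZ replicate 4.

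The third comparison, epileptic sgKcna1 against control sgLacZ, asks how treated epileptic mice stood against sham animals, and it shares libraries with both others. Of the 40 members 35 had a fold below 0, where 47.2% of all genes did, with a median of -0.50 against 0.02. No member passed the threshold, nor did any of the genes tested (0% called). At an unadjusted p under 0.05, 12 members were lower, against 2.48% of all genes, and 0 were higher. DESeq2 called 1700007G11Rik (adjusted p = 0.00698) and 0.221% of all genes, and limma voom called 3 members and 0.403% of all genes.

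1700007G11Rik, now named Cfap299 and annotated on chromosome 5 from 98329138 to 98802053, is a cilia- and flagella-associated gene. It was at 2.33, 1.83, 1.55, 3.33 and 2.77 CPM in the 5 control sgLacZ libraries, 1.35 to 2.08 (median 1.60) in the 6 epileptic sgLacZ libraries and 0.635 to 1.33 (median 0.931) in the 6 epileptic sgKcna1 libraries. All 6 epileptic sgKcna1 libraries were below all libraries of both sgLacZ groups. Against epileptic sgLacZ this was a near tie, with 1.334 CPM in epileptic sgKcna1 replicate 3 and 1.346 CPM in epileptic sgLacZ replicate 9. Non-overlap in this direction held for 0.244% of all genes against epileptic sgLacZ and for no other member, and for 0.573% against control sgLacZ, where Spag17 and Pifo shared it. The log2 fold change was -1.27 (SE 0.26, adjusted p = 0.246) against control and -0.73 (SE 0.25, adjusted p = 0.213) against epileptic sgLacZ. The gene had 11 to 50 reads per library.

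Pifo, a regulator of ciliary disassembly on chromosome 3 from 105996957 to 106014646, was at 8.17, 4.12, 4.68, 3.33 and 4.24 CPM in the 5 control sgLacZ libraries, 2.59 to 4.30 (median 3.35) in the 6 epileptic sgLacZ libraries and 0.747 to 3.21 (median 2.31) in the 6 epileptic sgKcna1 libraries. The values of epileptic sgKcna1 were all below those of control sgLacZ, with a log2 fold change of -1.17 (SE 0.31, adjusted p = 0.400). Odf3b had -1.08 (SE 0.28, adjusted p = 0.389) in the same comparison. Spag17, of the central apparatus, had -1.49 (SE 0.48, adjusted p = 0.609), but counting both strands gave 4.19 times its reads, and -0.27 was found with both strands summed.

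Ccdc153, a protein of the dynein regulatory complex at the nexin link, lies on chromosome 9 from 44240677 to 44247306. Ccdc153 was at 27.3, 24.3, 20.4, 19.6 and 19.5 CPM in the 5 control sgLacZ libraries, 11.2 to 20.3 (median 12.4) in the 6 epileptic sgLacZ libraries and 6.39 to 22.2 (median 10.4) in the 6 epileptic sgKcna1 libraries. It was lower than control in both epileptic groups on average, by -0.67 (SE 0.26, adjusted p = 0.0809) in epileptic sgLacZ and -0.82 (SE 0.26, adjusted p = 0.609) in epileptic sgKcna1 mice, and the groups overlapped in each. DESeq2 called the former (adjusted p = 0.0493). Once the trend on gene length was removed, Ccdc153 had -0.31 (adjusted p = 0.355) and -0.69 (adjusted p = 0.535) in the same order. Tppp3, on chromosome 8 from 105467492 to 105471422, was at 81.0, 66.8, 60.9, 46.4 and 59.0 CPM in the 5 control sgLacZ libraries, 43.9 to 60.8 (median 48.4) in the 6 epileptic sgLacZ libraries and 40.1 to 63.2 (median 45.0) in the 6 epileptic sgKcna1 libraries. Its log2 fold changes were -0.31 (SE 0.14, adjusted p = 0.120) and -0.40 (SE 0.14, adjusted p = 0.674) in the same order, and the ranges overlapped. With the trend on gene length removed, those of Tppp3 were 0.08 (adjusted p = 0.708) and -0.24 (adjusted p = 0.692).

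Some members varied little. Rsph9, of the radial spoke head, on chromosome 17 from 46122038 to 46144242, was at 29.7, 19.9, 21.2, 22.5 and 23.5 CPM in the 5 control sgLacZ libraries, 19.4 to 29.0 (median 22.0) in the 6 epileptic sgLacZ libraries and 20.8 to 25.5 (median 21.9) in the 6 epileptic sgKcna1 libraries. The 3 means were 23.3 ± 3.81 CPM (SD, n = 5), 23.0 ± 3.53 CPM (SD, n = 6) and 22.5 ± 1.85 CPM (SD, n = 6), and the SE of each log2 fold change was 0.12. Dnaic1, an intermediate chain of the outer arm on chromosome 4 from 41569647 to 41638158, was at 3.95, 4.25, 4.85, 3.80 and 3.89 CPM in the 5 control sgLacZ libraries, 3.55 to 5.29 (median 4.76) in the 6 epileptic sgLacZ libraries and 3.36 to 6.41 (median 4.06) in the 6 epileptic sgKcna1 libraries. Its log2 fold changes were 0.14, -0.07 and 0.07 in the 3 comparisons, and -0.26, 0.21 and -0.05 with both strands summed. In epileptic sgKcna1 replicates 1, 2 and 3, Rsph9 was at 23.9, 20.8 and 21.4 CPM, inside the range of the other libraries, so that the low values of Foxj1 in these libraries were not shared by all members.

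Dynlrb2, a dynein light chain on chromosome 8 from 116505015 to 116515915, was at 13.6, 6.24, 7.99, 6.33 and 5.95 CPM in the 5 control sgLacZ libraries, 3.78 to 9.35 (median 5.20) in the 6 epileptic sgLacZ libraries and 1.75 to 9.43 (median 4.69) in the 6 epileptic sgKcna1 libraries, with 2.15, 1.75 and 3.72 in epileptic sgKcna1 replicates 1, 2 and 3 and 8.50, 5.67 and 9.43 in replicates 10, 11 and 12. Both epileptic groups overlapped each other and the controls. Zmynd10, a factor of dynein arm assembly on chromosome 9 from 107546872 to 107551321, was at 2.92, 1.25, 3.18, 1.93 and 3.42 CPM in the 5 control sgLacZ libraries, 2.73 to 4.04 (median 3.16) in the 6 epileptic sgLacZ libraries and 0.467 to 3.38 (median 2.27) in the 6 epileptic sgKcna1 libraries. Its lowest value, 0.467 CPM, was in epileptic sgKcna1 replicate 12, the shallowest library, with 5 reads. No contrast of these 2 genes passed the threshold.

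Other gene lists were compared with the members, each chosen from known roles. In epileptic sgLacZ against control, 7.26% of all tested genes were called higher and 3.76% lower. Genes called in these lists are read beside those shares, and 7 of 17 fits that left out a library called 0 genes. Of 69 other motile cilia genes tested, 59 had a fold below 0 in epileptic sgKcna1 against epileptic sgLacZ (median -0.44) and 56 against control sgLacZ (median -0.33). In epileptic sgLacZ against control, 3 of them rose, among them Kif27 (1.79, adjusted p = 0.0330) and Cfap65 (1.30, adjusted p = 0.0428), and 2 fell, among them Rsph14 (-1.63, adjusted p = 0.0320). By contrast, 42 genes of intraflagellar transport and the BBSome, which serve primary cilia as well, had medians of -0.05, -0.01 and -0.02 in the 3 comparisons. Their mean log2 level varied between -0.07 and 0.05 over all libraries. In epileptic sgLacZ against control 5 of them rose, among them the kinesin Kif17 (1.25, adjusted p = 0.0320), Ift122 (0.96) and Ift140 (0.87), and 1 fell.

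Of 13 regulators of multiciliation tested, such as the RFX factors, none passed the threshold in any comparison, and the medians were -0.01, -0.25 and -0.06. In epileptic sgKcna1 against epileptic sgLacZ, 10 of the 13 had a fold below 0 and 3 above, where 50.7% of all tested genes were below 0. The mean log2 level of the regulators relative to control averaged -0.39 in epileptic sgKcna1 libraries (-0.95 to -0.004), beside -0.38 for the other motile cilia genes. Of 12 genes of the neuronal primary cilium, 3 rose in epileptic sgLacZ against control, where 7.26% of all tested genes were called higher. These were the cyclase Adcy3 (2.36, adjusted p = 0.0404), the receptor Sstr3 (0.46) and the phosphatase Inpp5e (0.85). Of 9 ependymal genes outside the axoneme, 1 fell in that comparison, where 3.76% of all tested genes did. It was the surface protein Cd24a (-0.67, adjusted p = 0.0330). Cd24a was lower in all 6 epileptic sgLacZ libraries than in all 5 controls, which was so for 2.4% of all genes. The 9 genes had medians of -0.18 and -0.46 in epileptic sgKcna1 against epileptic sgLacZ and against control, with 7 of 9 below 0 in each.

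Markers of the choroid plexus, the epithelium beside the ependyma in the ventricles, varied most. Their mean log2 level relative to control was -1.82, -2.92 and -0.25 in epileptic sgKcna1 replicates 1, 2 and 3 and 0.77, 0.75 and 0.19 in replicates 10, 11 and 12. It ran from 0.19 to 1.35 in epileptic sgLacZ and from -1.29 to 1.14 in control sgLacZ libraries. All 19 markers had a fold below 0 in epileptic sgKcna1 against epileptic sgLacZ (median -1.002), 18 of 19 had one above 0 in epileptic sgLacZ against control (median 0.70), and 0 passed the threshold in any comparison. Summed choroid plexus CPM spanned 1277 to 12876 in control, 4742 to 11818 in epileptic sgLacZ and 318 to 8079 in epileptic sgKcna1 libraries. Of the defining markers, Ttr averaged 5440.0 ± 4296 CPM (SD, n = 5) in control sgLacZ. It averaged 6288 ± 2691 CPM (SD, n = 6) for epileptic sgLacZ, then 3741 ± 2867 CPM (SD, n = 6) for epileptic sgKcna1, and 0 of the 19 were at 0 in all libraries. The part of choroid plexus content in the members' levels was not tested.

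**Figure D4:**
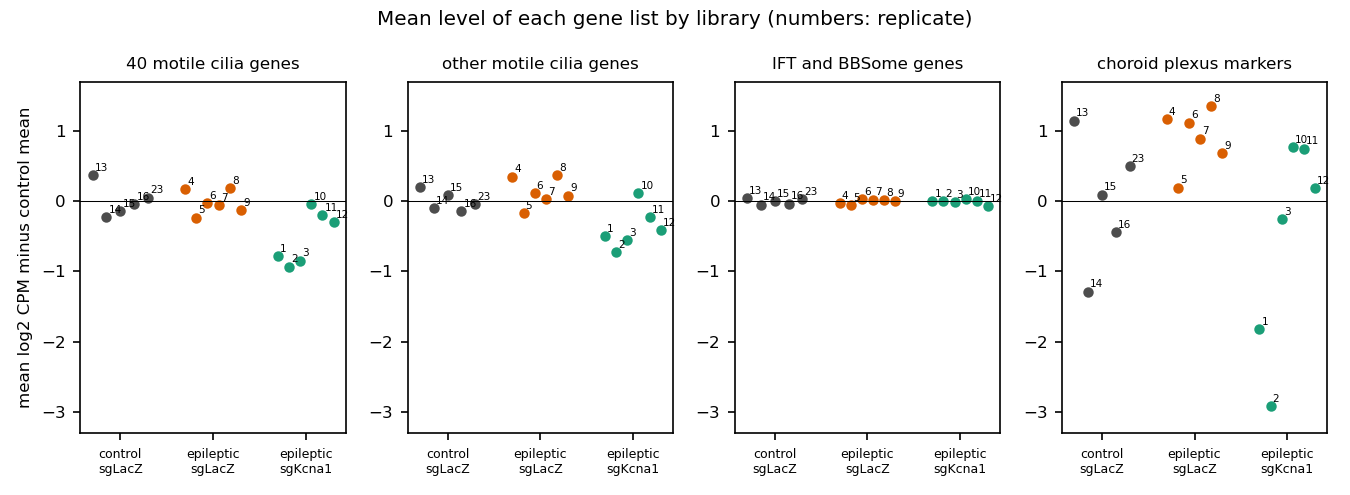
Mean log2 CPM relative to the control mean in each library (points, numbered by replicate) for the 40 motile cilia genes, other motile cilia genes, intraflagellar transport (IFT) and BBSome genes, and choroid plexus markers, by group on a common axis. Epileptic sgKcna1 replicates 1, 2 and 3 are the lowest for the members, at -0.78, -0.93 and -0.84, the IFT and BBSome genes stay between -0.07 and 0.05, and the choroid plexus markers span -2.92 to 1.35.

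Meningeal and fibroblast markers (11 tested) had medians of -0.02, -0.37 and -0.38 in the 3 comparisons, with all 11 below 0 in epileptic sgKcna1 against control and 0 past the threshold. Astrocyte markers (12 tested) had medians of 0.19, -0.07 and 0.17, and 2 rose in epileptic sgLacZ against control, Gfap (0.60, adjusted p = 0.0447) and Aldh1l1 (0.33, adjusted p = 0.0391). Hippocampal neuron markers (11 tested) had medians of -0.05, -0.09 and -0.11, with 2 higher and 2 lower in the first comparison. For both lists, the shares of all tested genes called in that comparison were 7.26% higher and 3.76% lower. In epileptic sgKcna1 libraries the mean log2 level relative to control averaged -0.50 for meningeal and fibroblast markers (-1.25 to 0.05), near the -0.52 of the motile cilia genes (-0.93 to -0.05). For meningeal and fibroblast markers, epileptic sgKcna1 replicates 1, 2 and 3 had 0.05, -0.91 and -1.25. Replicates 10, 11 and 12 had -0.21, -0.34 and -0.34. The motile cilia genes had -0.78, -0.93 and -0.84 in replicates 1, 2 and 3 and -0.05, -0.20 and -0.29 in replicates 10, 11 and 12. Replicates 2 and 3 were thus low for both lists, and replicate 1 for the motile cilia genes only. Astrocyte markers lay between -0.03 and 0.15 and neuron markers between -0.44 and 0.04 in the same libraries. The part of meningeal content in the members' levels was not tested.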

How the data were processed

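Hippocampal RNA of 17 samples was sequenced. Reads were aligned by the authors to mm10 with STAR 2.7 and deposited as raw counts per gene for either strand and for each strand, 55450 genes per library. The labels name an unstranded kit and the methods a stranded one. The ratio of reverse to forward reads was 0.994 to 0.998, so the unstranded counts were used, in which a read inside 2 overlapping genes is left out. Pairs of libraries of a group differed by a chi-square of 8.67 to 220 per degree of freedom over genes with at least 20 counts, so none was taken as a copy. The samples are separate per the labels, but whether each is 1 animal is not stated, so p-values measure the spread between these samples. The floor of 3 reads covers counting error only.

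Counts were filtered with filterByExpr (17615 genes left), scaled by TMM and fitted in a single edgeR 4.0.16 quasi-likelihood model (R 4.3.3) of 3 groups with no covariate. Two-sided tests were adjusted by Benjamini-Hochberg over all tested genes with a threshold of 0.05. Log2 CPM used a prior count of 2. DESeq2 1.42.0, limma 3.58.1 (voom with quality weights), other size factors, no filter, both strand counts summed, the groups compared alone, covariates (percent unmapped, sex) and leaving out each library were alternatives, and 2 more were chosen after seeing the data: leaving out 5 libraries with reads of both sexes (lesser above 5% of greater), and removing each library's lowess trend (span 0.3) on exon length.

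The 40 members and 9 other gene lists (206 of 212 genes found) were chosen with earlier results of these data known. Old symbols were matched through RefSeq synonyms. Positions and promoters are RefSeq's, GRCm38.p6, which mm10 denotes. Exon lengths came from an older annotation, for 89.7% of tested genes. Values per library are given for Foxj1, Tmem212, 1700007G11Rik, the member highest per kilobase in each role and the 3 members with the smallest p in each comparison. From the other lists, up to 3 genes called per comparison were named, or genes among the 3 with the highest mean CPM where none was called, as for Ttr. The script was tested on simulated counts.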

Additional observations from a re-analysis of the deposited data

Results flagged for a closer look

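Riiad1 in epileptic sgKcna1 replicate 2, at 2.73 CPM, was the lowest of its group by a gap to the next library that exceeded Dixon's limit for 6 samples. Of 48 checks of a named gene or of the mean over the 40 members in a group, this was the only 1 to do so, and chance gives about 1 in 20.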

How the results depend on the processing

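No paired analysis was possible because the groups share no replicate numbers. The median log2 fold change of the 40 genes moved by less than the spread between replicates under all alternatives. No alternative left out epileptic sgKcna1 replicates 1, 2 and 3 together. Leaving out each library gave -0.08 to 0.12 in epileptic sgLacZ against control, -0.70 to -0.39 in epileptic sgKcna1 against epileptic sgLacZ and -0.65 to -0.37 in epileptic sgKcna1 against control. The count of 2 genes called in epileptic sgLacZ against control (11.0% of all genes) was 1 with both strand counts summed (14.2% of all genes), 4 with DESeq2 (20.9%), 9 with limma voom (41.4%), 4 with the groups fitted alone (17.9%), 0 with percent unmapped (2.43%) or with sex (2.93%) as a covariate, 1 without the libraries with reads of both sexes (3.53%) and 1 with the length trend removed (10.5%), and it ranged from 0 to 5 when a library was left out. In epileptic sgKcna1 against epileptic sgLacZ, the count of 0 was 1 with DESeq2 (0.812%) and 0 to 4 when a library was left out. In epileptic sgKcna1 against control, the count of 0 was 1 with DESeq2 (0.221%), 3 with limma voom (0.403%), 3 with percent unmapped as a covariate (1.51%) and 0 to 1 when a library was left out, where the 1 was Tmem212 without epileptic sgKcna1 replicate 12. Riiad1 reversed to 0.51 in epileptic sgLacZ against control with both strand counts summed. Tmem212, at 0.19 in epileptic sgKcna1 against epileptic sgLacZ, reversed to -0.20 with limma voom, -0.62 with percent unmapped, -0.26 without the libraries with reads of both sexes, -0.25 with the length trend removed, and -0.36 to 0.33 when a library was left out. The cause of these moves was not tested. Genes with few reads, such as Dnah11, are limited by depth.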
